A study of Mus musculus with 6 samples.

Results

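The serpins are a family of protease inhibitors and related proteins, and 56 probe sets for 40 Serpin genes were followed here in the livers of mice on a high-fat or a control diet. A probe set, the group of short probes that measures a transcript on an Affymetrix array, was counted as a member when the array annotation gave it exactly 1 symbol starting with Serpin. They are 40 of the 18193 genes that the arrays measure under a single symbol. Of the 45037 probe sets on the larger array design, 39 members (30 genes) lay on the 22626 probe sets shared with the smaller design and 17 members, among them every probe set of another 10 genes, on the larger design alone. The 56 probe sets fell into clade a (18 probe sets, 14 genes), b (26 probe sets, 18 genes), c (1), d (1), f (3 probe sets, 2 genes), g (1), h (2 probe sets, 1 gene) and i (4 probe sets, 2 genes), and clade e was not analysed here. Another 3 probe sets that carry several Serpin symbols were left out.

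Most serpins bait a protease with an exposed loop and, once that loop is cut, trap the enzyme in an irreversible complex. The liver secretes many clade a, c, d, f and g serpins into plasma, where they restrain clotting, clot lysis, complement and leukocyte proteases, and some members carry hormones in place of inhibiting an enzyme. Clade b serpins mostly stay inside cells and guard them against their own granule and lysosomal proteases, and Serpinh1 of clade h is a collagen chaperone of the endoplasmic reticulum.

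The high-fat group comprised livers of C57BL/6J mice taken after 2, 4 and 10 weeks on a diet that the study's design calls HFC, with 1 array per week. The control group comprised C57BL/6J livers at the same weeks on the control diet, also with 1 array per week, so that there were 6 arrays in all. The labels name no genetic change in either group, and total RNA came from the same lobes, frozen at collection. Neither age, sex nor the number of mice behind an array is given. Xist, expressed from an inactive X chromosome, lay between 10.79 and 12.60 on the log2 scale on all 6 arrays, and of the Y-linked genes Eif2s3y was at the floor on all 6, Uty on 5 and Kdm5d on 4. The arrays of week 4 are of the larger design and those of weeks 2 and 10 of the smaller one, so levels are compared between diets within a week and across time only between weeks 2 and 10. Where 3 values of a diet follow each other, they are those of weeks 2, 4 and 10, and likewise 3 differences, each high-fat minus control.

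Values are log2 signals after each array was centred on a common median, and signals below 155.3 (7.28 on the log2 scale) were set to that floor. With 1 array per diet a single week has no replicate and no test, and a difference of at least 1.5-fold is used there as a description of size. Of the shared probe sets, 50.4% to 65.8% were above the floor on an array. The 3′ to 5′ signal ratio of pyruvate carboxylase, an indicator of RNA degradation, was 9.64, 7.78 and 2.39 on the high-fat arrays, against 3.82, 4.26 and 4.01 on the control arrays. The same ratio of actin was 1.61, 2.35 and 1.17 on the high-fat arrays, against 1.2, 2.15 and 1.73 on the control arrays. The part of RNA degradation in the differences below was not tested. All 9 measured hepatocyte markers were above the floor on at least 3 arrays, with albumin between 14.56 and 16.54. In a whole liver, fewer cells of a type and less RNA per cell cannot be told apart.

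The family divided by clade into signals that were bright on every array and signals near the floor. Among the 39 shared members, 16 were above the floor on all 6 arrays, 7 on 3 to 5, 4 on 1 or 2, and 12 on none. Every shared probe set of clades c, d, f and g was above the floor on all 6 arrays, as were 7 of 10 in clade a, 1 of 2 in clade h, 2 of 18 in clade b and 0 of 3 in clade i. The 12 members in the brightest 10% of all shared probe sets comprised 6 of clade a, 3 of clade f and the single probe sets of clades c, d and g. Signal ranks depend on the probes as well as on the transcript, so they give no order of transcript amounts.

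**Figure D1:**
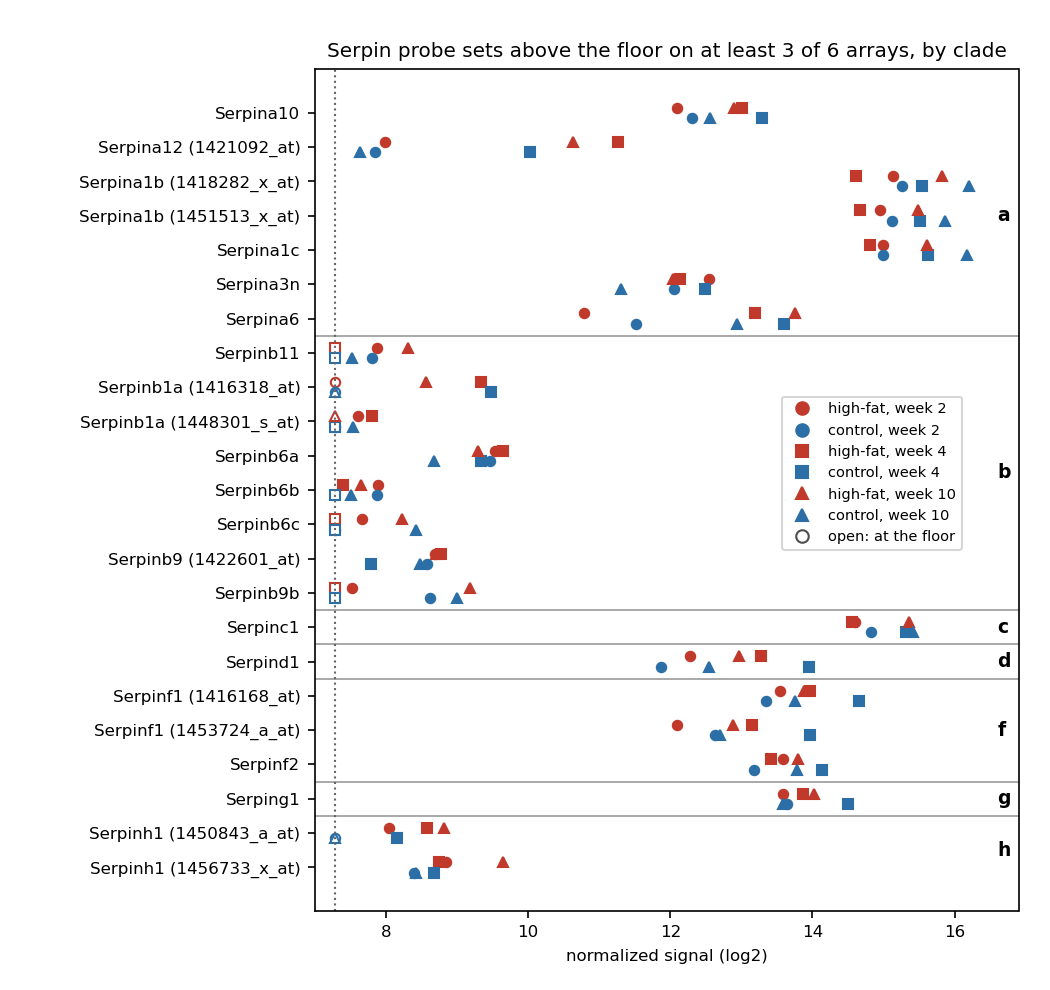
Normalized log2 signal of the 23 shared Serpin probe sets above the floor (dotted line, 7.28) on at least 3 of the 6 arrays, grouped by clade; red is high-fat and blue control, circles week 2, squares week 4 and triangles week 10, and open symbols lie at the floor. Clades a, c, d, f and g sit mostly to the right, clades b and h near the floor.

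Over the 3 weeks together, 0 of the 23 shared Serpin probe sets above the floor on at least 3 arrays differed between the diets at an adjusted p under 0.05 (limma with week as a block, Benjamini-Hochberg adjustment over 14533 probe sets), where 0.0138% of all those tested did. At an unadjusted p under 0.05, 2 of the 23 passed (Serpina12 and a probe set of Serpinh1), beside 4.03% of all tested. Of the 19 members that were above the floor on at least 1 array of every week, 6 were higher under high-fat at all 3 weeks, where 10.6% of all such probe sets were. These 6 were Serpina12, Serpinb6a, Serpinb6b, Serpinb9 and both probe sets of Serpinh1. Another 3 of the 19, both Serpina1b probe sets and Serpinc1, were lower at all 3 weeks, beside 14.9% of all. None of the 19 was at least 1.5-fold higher at every week (0.229% of all) or at least 1.5-fold lower at every week (0.167% of all).

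The direction of the family's differences was not the same at the 3 weeks. At week 2, 1 of 24 Serpin probe sets above the floor on either array was at least 1.5-fold higher on the high-fat array (7.28% of all) and 2 were at least 1.5-fold lower (10.5% of all), with a median difference of 0.04 on the log2 scale beside -0.05 over all probe sets. At week 4, 2 of 21 were at least 1.5-fold higher (5.61% of all) and 9 at least 1.5-fold lower (8.84% of all), with a median of -0.36 beside -0.06, but with quantile normalization 4 were higher and 0 lower. At week 10, 8 of 26 were at least 1.5-fold higher (14.4% of all) and 0 at least 1.5-fold lower (13.6% of all), with a median of 0.20 beside 0.02. Among the members on the larger design alone, 2 of the 4 above the floor were at least 1.5-fold higher at week 4 (7.98% of all) and 0 at least 1.5-fold lower (6.39% of all).

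**Figure D2:**
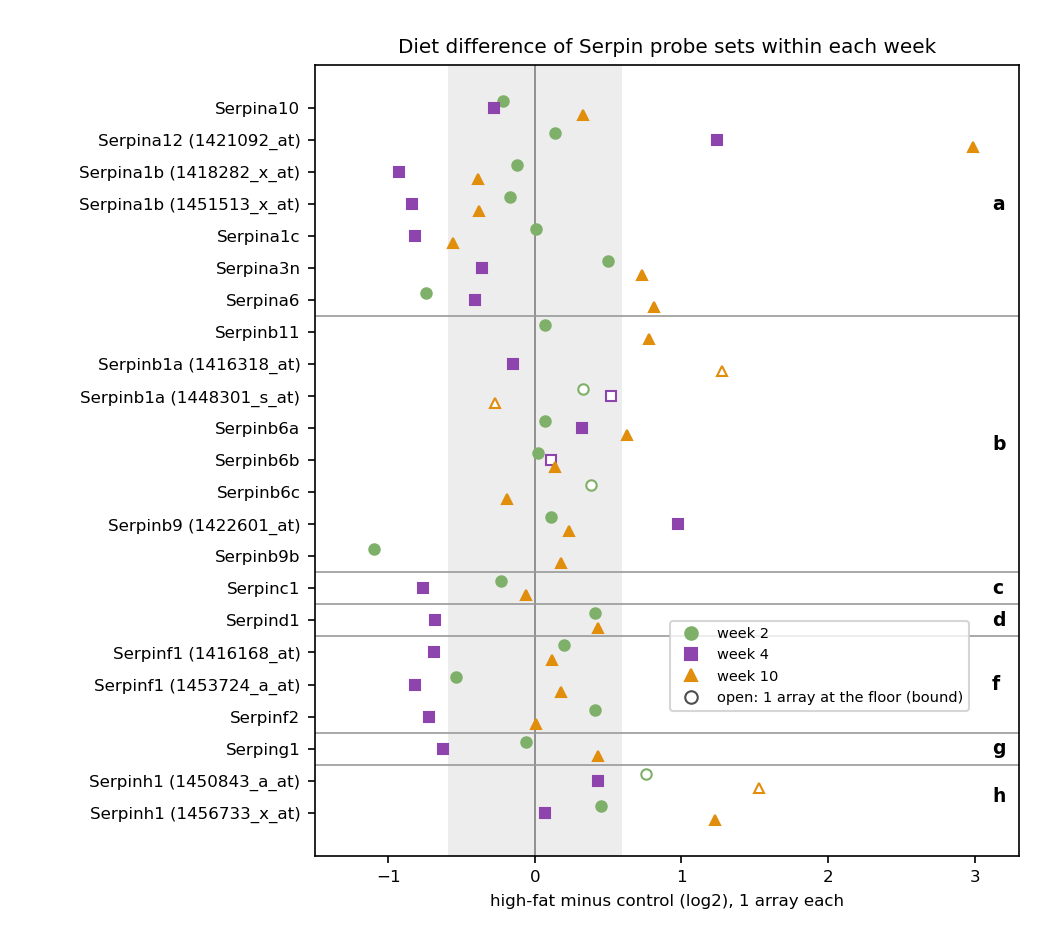
High-fat minus control difference (log2) of the same 23 probe sets at week 2 (green circles), week 4 (purple squares) and week 10 (orange triangles), each from 1 array per diet; the grey band marks differences under 1.5-fold, open symbols are bounds with 1 array at the floor, and pairs with both arrays at the floor are not drawn. The purple squares of clades c, d, f and g all lie left of the band, between -0.82 and -0.63 (with quantile normalization Serpinc1 turned to 0.06), and Serpina12 at week 10 lies farthest right, at 2.99.

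Among the hormone-binding and non-clotting members of clade a, the largest differences were those of Serpina12 and Serpina7. Serpina12, also called vaspin, is an adipokine that inhibits a kallikrein. Its probe set 1421092_at read 7.99, 11.27 and 10.63 on the high-fat arrays, against 7.85, 10.03 and 7.64 on the control arrays. The high-fat array was the higher of the pair every week, narrowly at week 2, and the control arrays of weeks 2 and 10 lay close to the floor while that of week 4 did not. The differences were 0.14, 1.24 and 2.99 on the log2 scale (2.36-fold at week 4 and 7.93-fold at week 10), with a mean of 1.46 (SE 0.435) and an adjusted p of 0.993 by limma. Without week 2, the week of its smallest difference, the mean was 2.11 and the adjusted p 0.0104, with limma over the 2 remaining weeks. The share of all probe sets called in that fit is not given here, so this p-value cannot be set against it. A second probe set of the gene, 1421091_at, was at the floor on all 6 arrays and so did not show the difference.

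Serpina7, thyroxine-binding globulin, carries thyroid hormone in plasma and was measured only at week 4. It read 11.20 on the high-fat and 8.73 on the control array, a difference of 2.47 or 5.54-fold. That is the largest difference of all 4008 probe sets counted on the larger design alone, and it rests on 1 array per diet. 2 more genes of the larger design can be set beside it. Serpina11 read 10.86 on the high-fat and 11.16 on the control array, and the pseudogene Serpina4-ps1 (1448092_x_at) read 8.17 on the high-fat array and was at the floor on the control array, at least 1.86-fold higher. Its probe set 1444296_a_at read 7.81 under high-fat with control at the floor, and the remaining one was at the floor on both.

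The promoters of Serpina12 and Serpina7, from 250 bases before to 50 bases after the annotated start in RefSeq on GRCm38.p6, are shown because their diet differences were the largest of the family. Capitals mark matches on either strand to the letters GTTAAT, a half-site of the hepatocyte factor HNF1, or TTGCNNAA, a C/EBP-like site. Serpina12 lies on the minus strand at chr12:104044394-104044693 and Serpina7 on the minus strand at chrX:139085187-139085486.
Serpina12: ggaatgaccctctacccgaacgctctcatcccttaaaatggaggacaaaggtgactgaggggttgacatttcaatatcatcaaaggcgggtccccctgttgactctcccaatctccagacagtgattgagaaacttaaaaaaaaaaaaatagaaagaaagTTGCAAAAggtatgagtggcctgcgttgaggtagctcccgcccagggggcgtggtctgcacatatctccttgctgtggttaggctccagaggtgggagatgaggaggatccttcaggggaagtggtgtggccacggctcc
Serpina7: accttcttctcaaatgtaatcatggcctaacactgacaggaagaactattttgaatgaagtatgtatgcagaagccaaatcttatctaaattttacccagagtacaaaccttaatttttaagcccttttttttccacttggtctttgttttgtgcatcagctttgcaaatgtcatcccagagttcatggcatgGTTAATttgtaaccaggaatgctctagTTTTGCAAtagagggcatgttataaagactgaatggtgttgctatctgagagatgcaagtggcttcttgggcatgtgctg
The Serpina12 window held a C/EBP-like match and no HNF1 half-site, and the Serpina7 window held both. Of 32851 promoters of this length, 7.1% held GTTAAT and 10.8% held TTGCNNAA, compared with 5 and 8 of the 34 Serpin genes found in the promoter table. The percentages count single promoters, whereas a gene was counted when any of its promoters matched (Serpina7 has 2), so these are unlike measures. The 2 marked motifs do not overlap in these windows. TATAAA, searched as well but not marked, occurred in 13.6% of all promoters and in 8 of the 34 genes, Serpina7 among them. A match describes letters in the window and is no evidence that a factor was bound.

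Serpina6, corticosteroid-binding globulin, transports glucocorticoids and changed sides between weeks. It read 10.78, 13.19 and 13.75 on the high-fat arrays, against 11.52, 13.60 and 12.94 on the control arrays. The high-fat array was the lower of the pair at weeks 2 and 4 and the higher at week 10, with differences of -0.74, -0.41 and 0.81. On the same array design, the signal at week 10 exceeded that at week 2 by 2.97 in high-fat livers and by 1.42 in control livers, both larger than any diet difference of the gene.

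Serpina3n inhibits leukocyte proteases such as granzyme B and is a mouse acute phase protein. Its signal was 12.54, 12.13 and 12.04 on the high-fat arrays, against 12.05, 12.49 and 11.30 on the control arrays. High-fat exceeded control at weeks 2 and 10 but not at week 4, with differences of 0.50, -0.36 and 0.73. The mean difference was 0.29 (SE 0.26), or 0.10 with the values as deposited, and limma gave an adjusted p of 0.993. Acute phase proteins as a list had median differences of -0.11, -0.40 and 0.03 at weeks 2, 4 and 10, with 0 of 18 called over the weeks, and the week 4 median was 0.11 with quantile normalization and 0.04 with a correction for brightness, which subtracts the running median difference of probe sets of like signal. Here and below, medians and 1.5-fold counts of a list cover its members above the floor on at least 3 arrays. Each gene is represented there by its brightest shared probe set. The shares of all probe sets beside such counts cover every probe set above the floor on either array of the week, an unlike base.

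**Figure D3:**
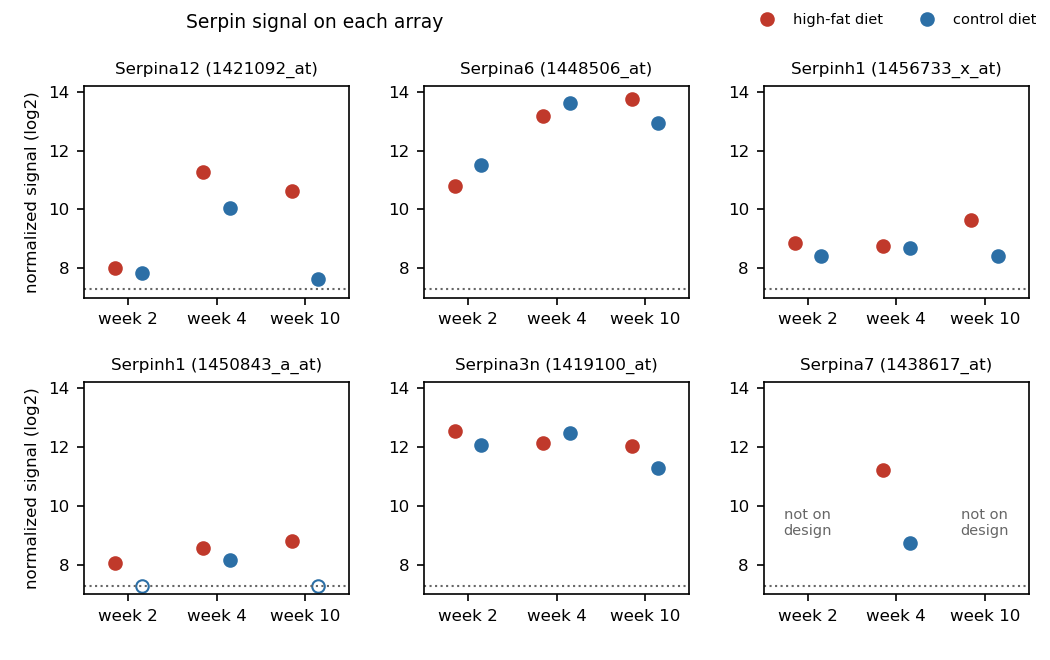
Normalized log2 signal on each array for 5 Serpin probe sets of both designs and for Serpina7, which is on the week 4 design alone; red is high-fat, blue is control, the dotted line is the floor and open circles lie at it. Serpina12 separates by diet at weeks 4 and 10, Serpina6 crosses between weeks 4 and 10, and both Serpinh1 probe sets are higher on every high-fat array.

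Serpina1b and Serpina1c are copies of the gene for mouse alpha-1-antitrypsin, the main plasma inhibitor of neutrophil elastase, and their probe sets lay in the brightest 10%. Serpina1b (1418282_x_at) read 15.14, 14.61 and 15.82 on the high-fat arrays, against 15.26, 15.54 and 16.21 on the control arrays. It was lower on the high-fat array each week, by at least 1.5-fold only at week 4 (1.91-fold, -0.93). The second Serpina1b probe set, 1451513_x_at, gave -0.17, -0.84 and -0.38, and Serpina1c (1448680_at) gave 0.01, -0.82 and -0.56. Their mean differences ranged from -0.48 to -0.46, with an adjusted p of 0.993 for each by limma. With quantile normalization the 3 means were -0.06 to -0.01, and with a correction for brightness -0.16 to -0.14.

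These probe sets may not be independent views of separate genes, since the annotation gives other probe sets several Serpina1 symbols at once. Transcript sequences were not compared here. A probe set that carries the symbols of Serpina1d and Serpina1a, not counted as a member, gave -0.03, -0.73 and -0.41, and one that carries those of Serpina1e, Serpina1c and Serpina1b gave 0.03, -0.53 and -0.24. The promoters of Serpina1b and Serpina1c are shown because they were the most alike of the Serpina1 pairs. Serpina1b lies on the minus strand at chr12:103738140-103738439 and Serpina1c on the minus strand at chr12:103904901-103905200, and in an alignment 276 of 302 positions (91.4%) were identical. Pairs among Serpina1a to Serpina1d were 85.2% to 91.4% identical, pairs of these with Serpina1e 63.9% to 69.3%, and pairs with Serpina1f 48% to 52.3%.
Serpina1b: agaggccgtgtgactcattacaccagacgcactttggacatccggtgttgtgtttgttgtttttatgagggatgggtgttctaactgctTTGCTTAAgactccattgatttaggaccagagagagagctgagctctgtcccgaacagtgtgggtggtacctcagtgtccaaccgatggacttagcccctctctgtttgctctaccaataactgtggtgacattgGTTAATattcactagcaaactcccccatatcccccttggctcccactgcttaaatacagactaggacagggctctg
Serpina1c: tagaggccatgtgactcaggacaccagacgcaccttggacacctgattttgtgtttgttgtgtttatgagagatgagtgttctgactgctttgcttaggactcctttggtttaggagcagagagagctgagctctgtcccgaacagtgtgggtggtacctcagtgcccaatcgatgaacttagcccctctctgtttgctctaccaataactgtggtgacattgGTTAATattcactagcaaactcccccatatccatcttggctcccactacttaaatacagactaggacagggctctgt
Capitals mark the motifs defined above. Both windows held the GTTAAT half-site in the same surrounding sequence, and only the Serpina1b window held the C/EBP-like match.

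Of the serpins known to act on clotting or clot lysis, Serpinc1, Serpind1 and Serpinf2 were at least 1.5-fold lower under high-fat at week 4, Serpina10 was not, and Serpina5 was at the floor on all 6 arrays. With quantile normalization none of them was at least 1.5-fold lower, and Serpina10 and Serpinc1 turned to 0.03 and 0.06. Serpinc1 is antithrombin, the heparin-dependent inhibitor of thrombin and factor Xa. It read 14.60, 14.55 and 15.36 on the high-fat arrays, against 14.83, 15.31 and 15.42 on the control arrays. The high-fat array was the lower each week, and the differences were -0.23, -0.76 and -0.06. Serpind1, heparin cofactor II, read 12.28, 13.27 and 12.97 on the high-fat arrays, against 11.87, 13.95 and 12.54 on the control arrays. Its high-fat array was the higher at weeks 2 and 10 and the lower at week 4, with differences of 0.41, -0.68 and 0.43.

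Serpinf2, alpha-2-antiplasmin, inhibits plasmin. Its signal was 13.59, 13.42 and 13.79 on the high-fat arrays, against 13.18, 14.14 and 13.78 on the control arrays. The diets were level at week 10, and the differences were 0.41, -0.72 and 0.01. Serpina10 is the protein Z-dependent inhibitor of factor Xa. It read 12.09, 13.01 and 12.89 on the high-fat arrays, against 12.31, 13.29 and 12.56 on the control arrays. No week reached 1.5-fold, with differences of -0.22, -0.28 and 0.33.

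Serping1, the C1 inhibitor of complement and of the contact system, read 13.58, 13.87 and 14.02 on the high-fat arrays, against 13.64, 14.50 and 13.59 on the control arrays. The difference was -0.06 at week 2, -0.63 at week 4 and 0.43 at week 10, with the high-fat array higher only at the last. Serpinf1, pigment epithelium-derived factor, is a secreted serpin that inhibits no protease. Its probe set 1416168_at read 13.55, 13.97 and 13.88 on the high-fat arrays, against 13.35, 14.66 and 13.76 on the control arrays. The other probe set, 1453724_a_at, read 12.09, 13.15 and 12.88 on the high-fat arrays, against 12.63, 13.97 and 12.70 on the control arrays. Both were lower under high-fat at week 4 (-0.69 and -0.82), but at week 2 they pointed opposite ways (0.20 and -0.54).

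The week 4 differences of the bright serpins depended on how the arrays were scaled. All 12 Serpin probe sets in the brightest 10% were lower on the high-fat array at week 4, as were 74.1% of the brightest 10% as a whole, and 9 of the 12 were lower by at least 1.5-fold (15.2% of the brightest 10%), with differences from -0.93 to -0.28 and a median of -0.70 beside -0.23 for the brightest 10% as a whole. With quantile normalization, which gives every array the same distribution, 0 of the 12 were at least 1.5-fold lower, 10 were lower by any amount (49.5% of the brightest 10%) and the median was -0.12, with the exceptions of Serpina10 and Serpinc1 named above. With a correction for brightness, chosen after seeing the data, 0 were at least 1.5-fold lower, 11 were lower by any amount (51% of the brightest 10%) and the median was -0.19, with Serpina10 at 0.05. The hepatocyte markers, also bright, had a median of -0.82 at week 4, with 7 of 9 at least 1.5-fold lower, and 0 of 9 under either of those settings (medians -0.05 and -0.20). At week 10, 2 of the 12 bright serpins, Serpina3n and Serpina6, were at least 1.5-fold higher (7.73% of the brightest 10%), and 2 of the 12 were so under each of those settings.

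**Figure D4:**
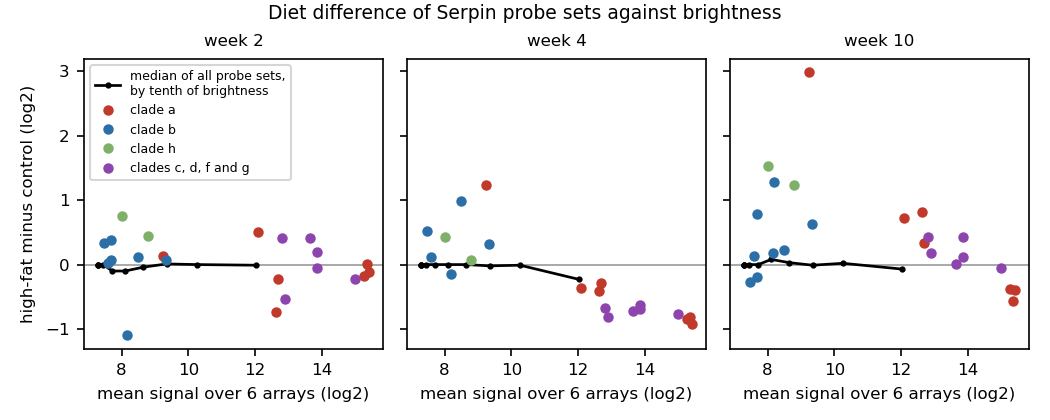
High-fat minus control difference (log2) of Serpin probe sets against their mean log2 signal over the 6 arrays, for each week, coloured by clade; the black line joins the medians of all shared probe sets in bins of 10% by brightness. At week 4 the line bends down to -0.23 at its last point, the brightest 10%, whose median signal is 12.03. The 12 bright serpins, with mean signals from 12.09 to 15.43, lie to the right of that point and below -0.23. The line thus gives no median at their own brightness. With quantile normalization 2 of them, Serpina10 and Serpinc1, turned above 0.

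Serpinh1, the chaperone that binds procollagen in the endoplasmic reticulum, was the higher of each pair on the high-fat array with both of its probe sets. Probe set 1450843_a_at read 8.04, 8.58 and 8.81 on the high-fat arrays, against 8.15 on the control array of week 4 and the floor on those of weeks 2 and 10. The differences were thus at least 1.69-fold at week 2, 1.35-fold at week 4 and at least 2.9-fold at week 10. Probe set 1456733_x_at read 8.85, 8.75 and 9.65 on the high-fat arrays, against 8.40, 8.67 and 8.42 on the control arrays. The high-fat array was again the higher of each pair, narrowly at week 4, with differences of 0.45, 0.07 and 1.23. The mean difference was 0.59 (SE 0.262) for this probe set and 0.91 (SE 0.259) for the first, where it rests on 2 bounds and was 1.37 with the floor at the 20th percentile, and limma gave each an adjusted p of 0.993.

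Collagen chains and collagen-processing enzymes, the clients and partners of Serpinh1, had median differences of 0.03, 0.02 and 0.37 at weeks 2, 4 and 10, and 0 of 15 tested were called. The members with the largest mean differences were Col3a1 (0.42, 0.73 and 1.0), Col4a1 (0.77, 0.66 and -0.21) and Col4a2 (0.04, 0.44 and 0.56). Others such as Col1a1 and Lox were lower at week 10, at -0.50 and -0.43. Both are bounds with the high-fat array at the floor, and the control arrays, at 7.78 and 7.71, lay close to it. Stellate cell and fibroblast markers had medians of -0.15, 0.15 and 0.24, with 3 of 12 past 1.5-fold upwards (14.4% of all probe sets) and 0 downwards (13.6% of all) at the last week. Their summed signal was 15054, 20141 and 15234 on the high-fat arrays, against 18181, 19679 and 11308 on the control arrays, and their part in the Serpinh1 difference was not tested.

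Clade b differences were small at weeks 2 and 4 apart from single genes. Serpinb6a, an intracellular inhibitor that can block cathepsin G, read 9.54, 9.65 and 9.30 on the high-fat arrays, against 9.46, 9.33 and 8.67 on the control arrays. It was above its pair at each week, by 0.07, 0.32 and 0.63. Serpinb9, an inhibitor of granzyme B, read 8.69, 8.77 and 8.70 on the high-fat arrays, against 8.58, 7.79 and 8.48 on the control arrays. Only the control array of week 4 stood apart, which gave differences of 0.11, 0.98 and 0.23. A second Serpinb9 probe set on the larger design was at the floor on both arrays.

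Serpinb9b read 7.52 on the high-fat and 8.62 on the control array at week 2, was at the floor on both at week 4, and read 9.18 against 9.0 at week 10. Its week 2 difference of -1.10 was the only one in clade b at least 1.5-fold lower. Serpinb11 read 7.87 on the high-fat and 7.80 on the control array at week 2, was at the floor on both at week 4, and read 8.31 against 7.52 at week 10. The week 10 difference was 0.78, with all 4 values close to the floor. Serpinb6c read 7.66 on the high-fat array at week 2 with the control array at the floor, was at the floor on both at week 4, and read 8.23 against 8.42 at week 10. Its diets thus differed in opposite directions at weeks 2 and 10.

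The 2 probe sets of Serpinb1a, an inhibitor of neutrophil elastase, disagreed. Probe set 1416318_at was at the floor on both arrays at week 2, read 9.34 on the high-fat and 9.48 on the control array at week 4, and read 8.56 on the high-fat array at week 10 with the control array at the floor, at least 2.43-fold higher. Probe set 1448301_s_at read 7.61 and 7.80 on the high-fat arrays of weeks 2 and 4 with both controls at the floor, and at week 10 was at the floor on the high-fat array with 7.54 on the control array. No direction can therefore be given for this gene. Serpinb6b was above the floor on 5 arrays with differences of 0.14 or less.

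At or near the floor were the remaining members. On the shared design, Serpina3a and Serpinb7 were above it on 1 array each, Serpinb8 and Serpini2 on 2 each, and Serpina5, Serpinb1b, Serpinb2, Serpinb5, Serpinb9c, Serpinb9g and Serpini1 (neuroserpin) on none. On the larger design alone, Serpina1f, Serpina3i, Serpina9, Serpinb12, Serpinb3a, Serpinb6e and Serpinb9d were at the floor on both arrays, as were the probe sets there of Serpinb5, Serpinb8 and Serpini1. Serpini2, a serpin of the exocrine pancreas, read 7.52 for high-fat at week 10 and 7.50 for control at week 2, with its other arrays at the floor. Pancreatic acinar markers had a median difference of 0.58 at week 10, with 3 of 6 at least 1.5-fold higher (14.4% of all probe sets), beside medians of -0.20 at week 2 and 0.00 at week 4. The week 4 median was set by the floor, where Cela3b, Ctrb1, Cel and Clps lay on both arrays. Cela1 and Prss2 differed there by -0.42 and -0.55, the latter a bound, and the median was -0.29 with quantile normalization.

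The enzymes that serpins inhibit and the proteins that bind them were counted as lists, and none of their members was called by limma. Clotting and clot-lysis proteases had median differences of 0.01, -0.39 and 0.13 at weeks 2, 4 and 10, with 0 of 17 called. Among the members with the largest mean differences of their lists, Klkb1, plasma kallikrein, a target of the C1 inhibitor, differed by 0.73, -0.19 and 1.02, and plasminogen (Plg) by -0.08, -0.71 and -0.29. Leukocyte, lysosomal and granule proteases had medians of -0.16, -0.14 and 0.22 (0 of 11 called), serpin receptors and cofactors 0.05, -0.48 and 0.07 (0 of 9 called), and inhibitors of other families -0.09, -0.41 and -0.14 (0 of 21 called). Vitronectin (Vtn), a serpin cofactor, differed by -0.21, -0.76 and -0.17. With quantile normalization the week 4 medians were -0.04 for the clotting proteases, -0.14 for the receptors and -0.05 for the other inhibitors, and with the correction for brightness -0.05, -0.13 and -0.08.

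Markers of macrophages, leukocytes and endothelium differed most at week 10. Macrophage and Kupffer cell markers had medians of -0.15, 0.03 and 0.65 at weeks 2, 4 and 10. At week 10, 9 of 15 were at least 1.5-fold higher (14.4% of all probe sets), and at week 2, 4 of 15 were at least 1.5-fold lower (10.5% of all). Their summed signal at week 10 was 29686 on the high-fat and 18507 on the control array. Neutrophil and lymphocyte markers had medians of -0.05, 0.07 and 0.47 and endothelial markers -0.47, -0.16 and 0.53. Of 10 endothelial markers, 4 were at least 1.5-fold lower at week 2 (10.5% of all). At week 10, 5 of them were so much higher (14.4% of all) and 1 so much lower (13.6% of all). Adipocyte markers had medians of -0.24, -0.34 and -0.29, but these rest on 2 of 6 listed genes, Retn and Car3. Retn was at the floor on both arrays of week 4, and Adipoq and Lep were at the floor on all 6 arrays. Erythroid and platelet markers had medians of -0.22, 0.17 and 0.07, from 4 of 8 listed genes, and hepatocyte markers had -0.39 at week 10. Of the 8 Serpin probe sets at least 1.5-fold higher at week 10, 3 were of clade b, 3 of clade a and 2 of clade h, and the part of these cell markers in them was not tested.

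Between weeks 10 and 2, which share a design, the median difference of the family was above 0 in both diets. In high-fat livers 12 of 25 Serpin probe sets were at least 1.5-fold higher at week 10 than at week 2 and 0 so much lower (21 higher and 4 lower by any amount), with a median of 0.58 beside 0.11 over all probe sets, of which 20.9% were higher and 13.7% lower. In control livers 8 of 24 were higher and 2 lower by that fold (15 higher and 9 lower by any amount), with a median of 0.26 beside 0.02 over all, of which 12.7% were higher and 10.2% lower. Serpina12 differed by 2.64 in high-fat livers and by -0.21 in control livers. Serpina1c differed by 0.61 in high-fat and by 1.18 in control livers. A higher signal at week 10 was not particular to serpins. The summed signal of the 9 hepatocyte markers was 248349 at week 2 and 351213 at week 10 in high-fat livers. In control livers it was 280840 and 452732. Weeks 10 and 2 were compared under the reported scaling alone, and the dependence on scaling was not tested.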

How the data were processed

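Total RNA of mouse livers was measured on 6 Affymetrix arrays, 1 per diet and week. The authors deposited 1 linear signal intensity for each probe set. How probes were summarized is not stated in the sources used. The values show arrays scaled to a trimmed mean near 500.0, except the control array of week 2 at 800.3. No depth exists for arrays, and their number limits the precision.

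Intensities were put on the log2 scale, 64 control probe sets were left out, and arrays were centred on the median of those shared probe sets that exceeded the floor everywhere. The floor was the pooled 40th percentile, and lower values were set to it, so a difference with 1 array at the floor is a bound. Symbols came from the platform annotation, and all 40 equalled the RefSeq symbol. The diets were compared with limma 3.58.1 under R 4.3.3 (functions lmFit and eBayes, week as a block, Benjamini-Hochberg adjustment at 0.05) on the 14533 probe sets above the floor on at least 3 arrays. The p-values set the mean diet difference against its variation from week to week, which may be technical or biological. With eBayes that variation is drawn towards a value common to all probe sets, so a quoted SE is not the gene's own spread. The 3 differences of Serpina12 (1421092_at) had a standard deviation of 1.43 beside an SE of 0.435, and those of Serpinb6b 0.06 beside 0.211. The script was tested on simulated data. There it called 11 of 67 changes of 1 on the log2 scale (16.4%) and 63 of 67 changes of 2 (94%). The simulation also held 66 changes of 4, and its values were not set to a floor. These shares may thus be too high for the real arrays. A probe set that was not called may therefore still differ between the diets.

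Values on every array are given by a rule for the brightest member of each clade, the largest differences of each week above the floor on both arrays, and genes whose probe sets disagree. Other members were named with their values in view. The members, the cell marker lists and the pathway lists were chosen with earlier results of these data known. Some members of these lists were not analysed here. The alternatives tried were no centring (values as deposited), quantile normalization, a floor at the 20th or at the 60th percentile, no filter on dim probe sets, other ways to combine a gene's probe sets, a fit without the week block, eBayes with trend and robust, and leaving out each week. A correction that subtracts the running median difference of probe sets of like brightness, and the list medians with it and with quantile normalization, were chosen after seeing the data.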

Additional observations from a re-analysis of the deposited data

Results flagged for a closer look

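The diet difference of Serpina6 (1448506_at), corticosteroid-binding globulin, pointed opposite ways at weeks 10 and 2, at 0.81 and -0.74 on the log2 scale, 1.55 apart. With 1 array per diet and week this difference between the weeks was not tested.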

How the results depend on the processing

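Of 86 recomputed counts and medians of the family, 70 stayed close to the reported value and 16 moved. Of 269 recomputed values of 20 probe sets, 245 kept their sign and side of the threshold. Part of that agreement was fixed in advance. No filter, no week block and eBayes with trend and robust leave a mean difference unchanged and can alter only its p-value. Combining probe sets leaves the mean of a gene with a single shared probe set unchanged. Leaving out each week gave 0 to 1 called Serpin probe sets, and the 1 was Serpina12 without week 2, the week of its smallest difference. The share of all probe sets called without week 2 is not given here. Under every other alternative 0 were called. The number at least 1.5-fold different at week 2, reported as 3, was 12 with the values as deposited (median -0.58, beside -0.65 over all counted probe sets, the control array of week 2 being scaled higher), 13 with the floor at the 20th percentile and 1 with it at the 60th. At week 4, reported as 11, it was 4 with quantile normalization and 2 with the correction for brightness, and the median was -0.05 and -0.06 there and 0.00 with no filter. At week 10, reported as 8, it was 13 and 5 with the lower and higher floor, and 5 without probe sets shared between transcripts. On the larger design alone, reported as 2, it was 1 with the higher floor, with each gene's probe sets averaged, and without shared probe sets.

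Mean differences over the weeks changed sign in these cases, and the cause was not tested. With quantile normalization Serpina10 was at 0.05, Serpinc1 at 0.06, Serpinf1 (1416168_at) at 0.11, Serpinf2 at 0.09 and Serping1 at 0.13. With the correction for brightness Serpina10 was at 0.07, Serpina6 at 0.03, Serpinf1 (1416168_at) at 0.13, Serpinf2 at 0.11 and Serping1 at 0.16. With the values as deposited Serpinb6c was at -0.15 and Serpind1 at -0.14. Leaving out each week in turn gave Serpina10 -0.25 to 0.06, Serpina6 -0.57 to 0.20, Serpinb6c -0.10 to 0.19, Serpinb9b -0.55 to 0.09, Serpind1 -0.13 to 0.42, Serpinf1 (1416168_at) -0.29 to 0.16, Serpinf2 -0.35 to 0.21 and Serping1 -0.35 to 0.18. None of these probe sets was called in any of these fits. Serpina12 ranged from 0.69 to 2.11 and both Serpinh1 probe sets stayed above 0 with each week left out. With 1 array per diet and week, no difference within a week can be set against replicate error.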

Other observations

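The probe set that carries the symbols of Serpinb9h, Serpinb9g, Serpinb9e and Serpinb9f, which was not counted as a member, was above the floor on 4 arrays and differed by -0.75 at week 2 and 0.23 at week 10, with both arrays at the floor at week 4. Sdc4, a heparan sulfate proteoglycan to which heparin-binding serpins can attach, read 12.59, 9.58 and 13.90 on the high-fat arrays, against 11.76, 11.62 and 13.59 on the control arrays. Its differences were 0.83, -2.04 and 0.31, the high-fat array being the lower only at week 4, and its mean difference was -0.30 with an adjusted p of 0.996 by limma. The hybridisation control bioD had a signal of 19736 on the control array of week 10, against 4271 to 7858 on the other 5 arrays.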
